A study of Drosophila melanogaster with 4 samples.

Results

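The genes for the larval serum proteins, Lsp1alpha, Lsp1beta, Lsp1gamma and Lsp2, and for the fat body proteins Fbp1 and Fbp2 were followed through RNA sequencing of whole Drosophila melanogaster, adult females 1 to 3 days old. The 6 genes were chosen by name, by matching their FlyBase symbols to the gene IDs of the deposited tables, and all 6 were found among 12073 gene IDs with reads in any library. The 4 groups had 1 library each. Wild type here means the strain w1118, and the mutant combined w1118 with the alleles K6801/10424 of kdm5, the gene of a histone lysine demethylase. Each genotype was kept for 6 hours either on 5% sucrose alone, the control, or on the same sucrose holding 20 mM paraquat, an agent that makes cells produce superoxide. RNA was taken from flies in groups of 5, and how many such groups entered a library, and the ages of its flies within 1 to 3 days, were not found in the labels.

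Larval serum proteins are hexamerins, storage proteins built of 6 subunits. The fat body makes them in late larvae under the control of the moulting hormone ecdysone, secretes them into the haemolymph and takes them back up before metamorphosis as a store of amino acids. Lsp1alpha, Lsp1beta and Lsp1gamma encode the subunits of larval serum protein 1, and Lsp2 encodes the subunit of larval serum protein 2 and is also transcribed in the adult fat body. Fbp1 is an ecdysone-induced gene of the hexamerin family whose product is the receptor for the uptake of larval serum protein 1, and Fbp2 encodes a protein related to alcohol dehydrogenase. Larval fat body cells persist into the newly eclosed fly and are lost over its first days.

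Library totals were 27.9 M to 29.1 M uniquely mapped reads (M, 1e6), of which the mitochondrial large ribosomal RNA took 9.12% to 12.9%. Levels are in RPKM, reads scaled to gene length and to the library total. The targeted gene Kdm5 stood at 2.06 RPKM in the mutant control and 2.03 in the mutant with paraquat, beside 43.4 and 22.5 in the matching wild type libraries, so the libraries match their genotype labels and some transcript was left. One library, the wild type control, lay farther from the rest: across genes its log2 differences from the other libraries had an SD of 0.73 to 0.76, against 0.28 to 0.59 among the other 3. Because every group is a single library, differences could not be tested against replicates, and none carries a p-value. The size rule calls a gene higher or lower when log2(RPKM + 1) moved by 1 or more and one of the libraries had an RPKM of 1 or more. A fold divides the RPKM of one library by that of another, and its 95% interval is an exact binomial interval for counting error only.

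All 6 genes had their lowest level in the wild type control and their highest in the mutant control. Of 8611 genes that reached 1 RPKM in any library, 839 (9.74%) had that same order of extremes. The 6 genes together took 75.9 reads per M in the wild type control, 350 in wild type with paraquat, 826 in the mutant control and 551 in the mutant with paraquat. In whole-fly RNA, fewer cells of a type and less RNA per cell cannot be told apart.

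**Figure D1:**
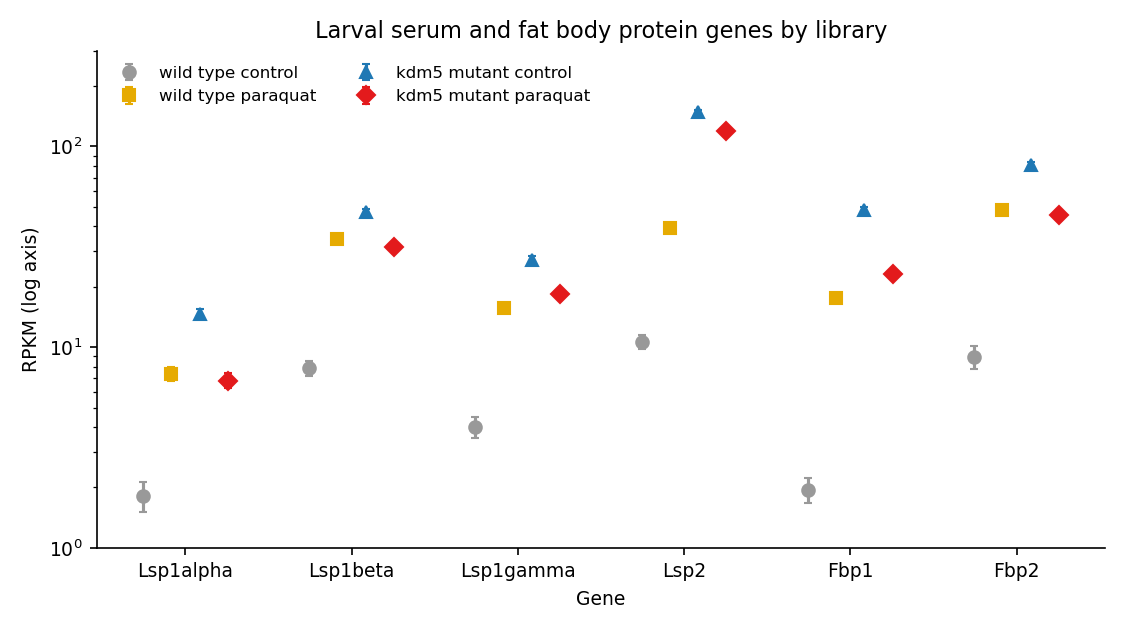
RPKM (log axis) of each of the 6 genes in the 4 libraries, 1 point a library, with exact 95% counting intervals as bars. The wild type control is the lowest point and the mutant control the highest for every gene, and Lsp2 in the mutant libraries, at 149 and 120 RPKM, lies above all other points.

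Among the subunits of larval serum protein 1, Lsp1alpha (FBgn0002562) was the least abundant. It stood at 1.81 RPKM in the wild type control, 7.36 in wild type with paraquat, 14.7 in the mutant control and 6.81 in the mutant with paraquat, from 136, 573, 1117 and 533 reads. The paraquat libraries of both genotypes did not differ beyond counting error (1.08-fold, 0.959 to 1.22), while the mutant control lay 1.99-fold (1.799 to 2.21) above wild type with paraquat. Lsp1alpha lies on chromosome X, 12490291 to 12492982 in the BDGP6 annotation, plus strand.

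Lsp1beta (FBgn0002563; chromosome 2L, 898500 to 901316, plus strand) was the most abundant subunit of the 3 in every library. Its levels were 7.83 RPKM in the wild type control, 34.4 in wild type with paraquat, 47.4 in the mutant control and 31.5 in the mutant with paraquat. The paraquat libraries were again close, with wild type 1.09-fold (1.03 to 1.16) above the mutant.

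Lsp1gamma (FBgn0002564; chromosome 3L, 66430 to 68995, plus strand) had levels of 3.99 RPKM in the wild type control, 15.7 in wild type with paraquat, 27.2 in the mutant control and 18.5 in the mutant with paraquat. Here the mutant with paraquat lay 1.18-fold (1.09 to 1.28) above wild type with paraquat. The Lsp1 genes sit on 3 different chromosome arms and showed the same lowest and highest library.

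Lsp2 (FBgn0002565; chromosome 3L, 12129393 to 12131869, plus strand) departed from the Lsp1 pattern in the mutant with paraquat. It had 10.6 RPKM in the wild type control, 39.2 in wild type with paraquat, 149 in the mutant control and 120 in the mutant with paraquat. Both mutant libraries lay above both wild type libraries, as they did for Lsp1gamma and Fbp1, but for Lsp2 the step from wild type with paraquat to the mutant with paraquat was 3.07-fold, against 1.18-fold and 1.32-fold for those genes. In the mutant control it ranked 322 by RPKM among 11307 genes with reads, against 4978 among 11239 in the wild type control. An antisense RNA, asRNA:CR11538, is annotated across 2096 bases of Lsp2, and since no source used here says whether counting used strand, reads of the pair cannot be told apart.

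Fbp1 (FBgn0000639; chromosome 3L, 14094589 to 14098053, minus strand), the receptor gene, had the widest range of the 6. Its levels were 1.93 RPKM in the wild type control, 17.5 in wild type with paraquat, 48.3 in the mutant control and 23.1 in the mutant with paraquat. In the wild type control reads covered 59.3% of its length, against 91.8% to 96.3% in the other libraries. The mutant with paraquat lay 1.32-fold (1.24 to 1.40) above wild type with paraquat.

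Fbp2 (FBgn0000640; chromosome 2L, 9426784 to 9427917, plus strand) stood at 8.91 RPKM in the wild type control, 48.5 in wild type with paraquat, 80.5 in the mutant control and 45.6 in the mutant with paraquat. The paraquat libraries did not differ beyond counting error (1.06-fold, 0.985 to 1.15). It overlaps CG42847 by 48 bases, a gene with 2 to 8 reads a library. The deposited lengths were 0.909 to 1.03 times the annotated exon bases of the 6 genes, so RPKM can be compared between them to within that range.

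The comparison of the genotypes without paraquat addressed the effect of Kdm5 loss in unstressed flies. All 6 genes were higher in the mutant control, where 6.55% of 8364 genes tested were higher. Fbp1 was 25.0-fold higher (21.6 to 29.1) and Lsp2 14.1-fold (13.0 to 15.2), the 8th and 13th largest positive differences among all genes tested. Fbp2 was 9.04-fold higher (7.91 to 10.4), Lsp1alpha 8.11-fold (6.78 to 9.76), Lsp1gamma 6.83-fold (6.03 to 7.76) and Lsp1beta 6.05-fold (5.54 to 6.61). The median difference of the 6 was 2.77 on the log2(RPKM + 1) scale, with a range of 2.45 to 4.07, beside −0.19 for all genes tested. The intervals of Fbp1 and Lsp2 lay apart from each other and above those of the other 4 genes.

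That comparison rests on the wild type control. Against wild type flies with paraquat, a baseline picked after the values were seen, the mutant control was past the size rule for 2 of 6 genes, Lsp2 (3.81-fold, 3.64 to 3.97) and Fbp1 (2.76-fold, 2.61 to 2.92), where 3.12% of genes were. The other 4 then lay between 1.38-fold and 1.99-fold. This pair of libraries differs in paraquat as well as in genotype.

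**Figure D2:**
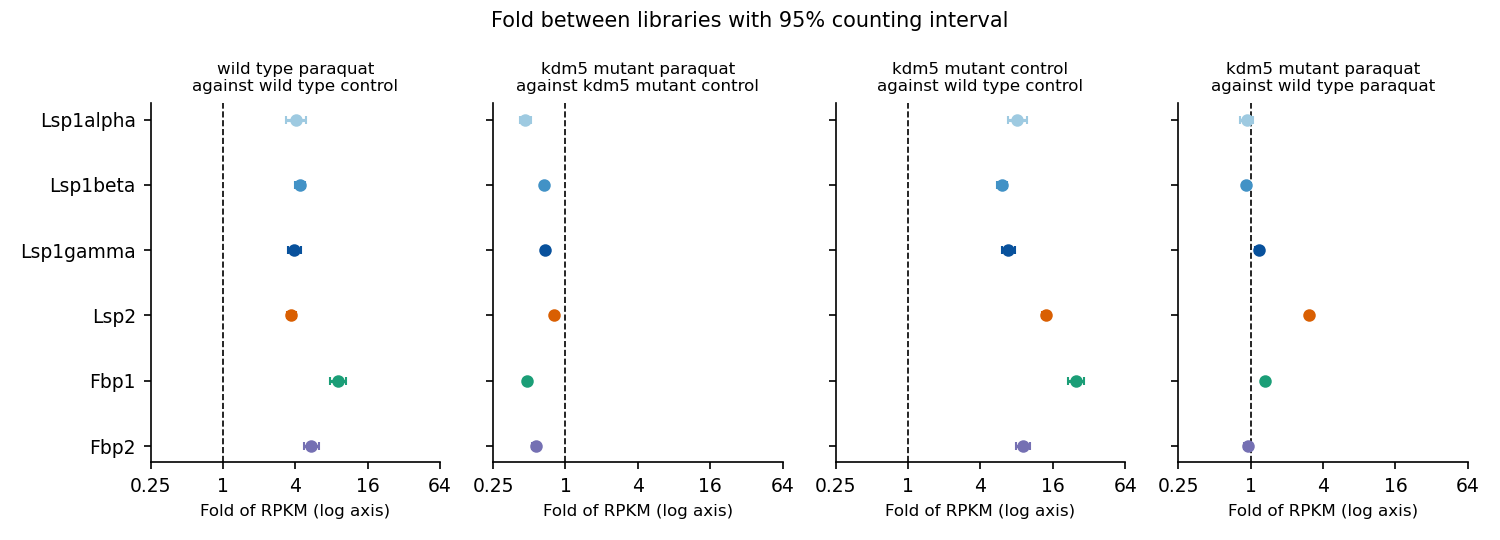
Fold of RPKM (log axis) for each gene in the 4 comparisons, with 95% counting intervals as bars and a dashed line at a fold of 1. All points lie right of the line for wild type with paraquat and for the mutant control, both set against the wild type control, all lie left of it for paraquat in the mutant, and Lsp2 alone stands well to the right between the paraquat libraries, at 3.07-fold.

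Paraquat in wild type flies addressed how flies with intact Kdm5 respond to oxidative stress. All 6 genes were higher with paraquat, where 5.21% of 8429 genes tested were higher. Fbp1 was 9.06-fold higher (7.79 to 10.6) and Fbp2 5.44-fold (4.75 to 6.27). The hexamerin genes were closer together: Lsp1beta was 4.39-fold higher (4.02 to 4.81), Lsp1alpha 4.07-fold (3.37 to 4.95), Lsp1gamma 3.94-fold (3.46 to 4.50) and Lsp2 3.69-fold (3.39 to 4.03). The median difference was 1.90 on the log2 scale (1.57 to 2.66), beside −0.29 for all genes. This comparison shares its baseline library with the one between genotypes without paraquat, so they are not independent. Set against the mutant control in its place, wild type flies with paraquat had 0 of the 6 genes higher and 2 lower, Lsp2 and Fbp1, beside 3.22% (higher) and 3.12% (lower) of all genes tested. The mutant control was the highest library for all 6 genes, so the 0 was fixed in advance. That pair of libraries also differs in genotype.

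In mutant flies the same feeding gave the opposite sign. All 6 genes had lower values with paraquat, and 2 of 6 were past the size rule, where 0.603% of 8288 genes were lower. Fbp1 was 2.09-fold lower (1.99 to 2.20) and Lsp1alpha 2.15-fold lower (1.94 to 2.39), with log2 differences of −1.03 and −1.004 that lie at the rule. Both calls ended with pseudocount 5, with median-ratio or upper-quartile scaling and with the mitochondrial large ribosomal RNA left out of the total. The values of the other 4 were −0.81 for Fbp2, −0.57 for Lsp1beta, −0.53 for Lsp1gamma and −0.31 for Lsp2, beside a median of −0.05 over all genes. Paraquat left Lsp2 in the mutant at 0.806 of its control level (0.782 to 0.830), the smallest difference of the 6.

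The mutant response minus the wild type response was negative for each gene and past the size rule for all 6, where 6.18% of 8611 genes were lower by that rule. It was −3.69 for Fbp1, −3.13 for Fbp2, −2.58 for Lsp1alpha and for Lsp1beta, −2.28 for Lsp1gamma and −2.10 for Lsp2, with a median of 0.25 over all genes tested. Fbp1 had the 6th most negative value of all. The 4 libraries each enter this difference, the wild type control included.

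Between the genotypes under paraquat, 1 of 6 genes was past the rule, where 2.30% of 8487 genes were higher. Lsp2 was 3.07-fold higher in the mutant (2.93 to 3.20), a log2 difference of 1.59 that ranked 70 from the top. The other 5 lay between −0.12 and 0.38, with Lsp1alpha and Fbp2 inside counting error. This comparison does not use the wild type control.

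**Figure D3:**
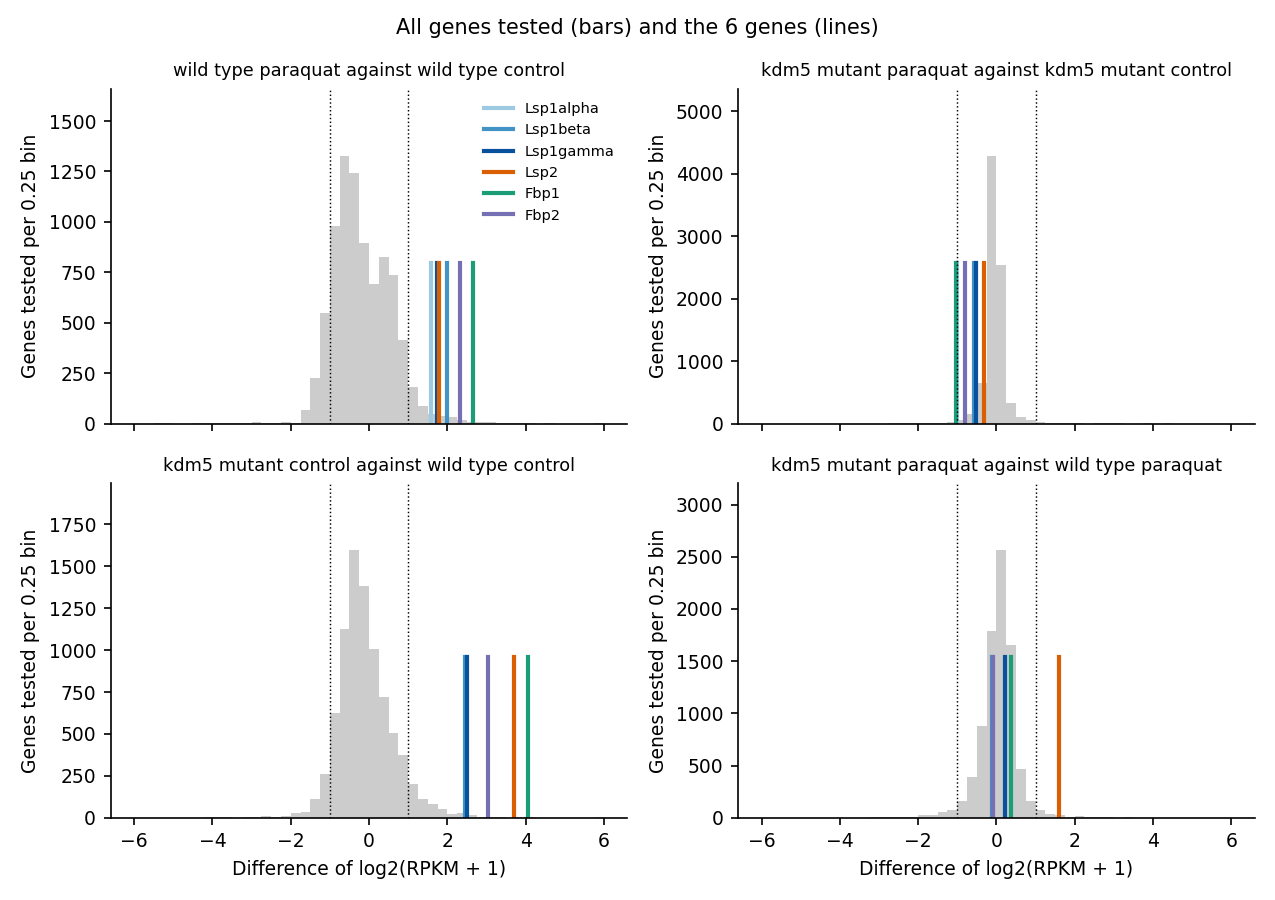
Number of genes tested per bin of 0.25 in the difference of log2(RPKM + 1) (grey bars, values beyond 6 placed in the end bins), with a coloured line at each of the 6 genes and dotted lines at the size rule of 1, for the 4 comparisons. The 6 genes lie in the upper tail in both comparisons that use the wild type control, from 1.57 upwards, and, except for Lsp2 at 1.59, in the bulk of genes between the paraquat libraries.

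The make-up of the 6 transcripts differed between genotypes. Lsp2 took 32.2% of the reads of the 6 genes in the wild type control (exact interval 30.2% to 34.3%) and 25.8% in wild type with paraquat (24.9% to 26.6%). In the mutant its share was 41.6% (41.0% to 42.3%) and 50.2% (49.4% to 51.0%). Lsp1beta went the other way, with 27.6% and 26.2% in the wild type libraries and 15.3% in each mutant library. On the per-length scale Lsp1beta reached 0.738 and 0.878 of the Lsp2 level in the wild type libraries, control first, and 0.318 and 0.262 in those of the mutant.

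Within larval serum protein 1 the proportions held closer. Lsp1gamma stood below Lsp1beta in all libraries, with Lsp1beta at 1.964, 2.19, 1.74 and 1.70 times its RPKM, taking the wild type libraries first and control before paraquat. The Lsp1alpha level was 0.231, 0.214, 0.310 and 0.216 of that of Lsp1beta in the same order, highest in the mutant control. The receptor gene Fbp1 moved most against its ligand genes: Lsp1beta was at 4.06 times the Fbp1 level in the wild type control, 1.97 in wild type with paraquat, 0.980 in the mutant control and 1.36 in the mutant with paraquat.

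**Figure D4:**
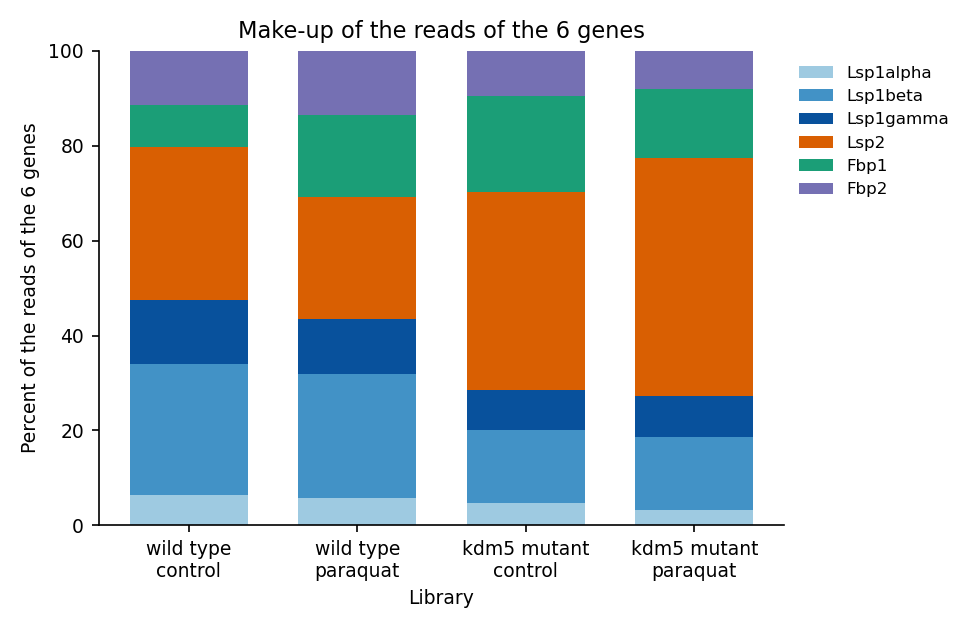
Share of each gene in the reads of the 6 genes, in percent, as stacked bars for the 4 libraries. The Lsp2 part grows from 32.2% and 25.8% in the wild type libraries to 41.6% and 50.2% in the mutant libraries, and the Lsp1beta part shrinks from 27.6% and 26.2% to 15.3% in both.

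Other transcripts of late larvae were near absence. Of 15 larval cuticle and salivary glue genes 9 could be analysed, and Lcp1, a larval cuticle protein gene, was the only one to reach 1 RPKM in any library, with 0.993, 1.70, 0.905 and 0.661 RPKM, in wild type and then mutant flies and with control before paraquat, the order kept below. The other 8 had 0 to 17 reads a library. For the 14 values at 0 reads, the limit that a count of 0 allows, 3 reads, came to 0.0896 to 0.277 RPKM depending on gene length. Lcp1 did not pass the size rule in wild type with paraquat (0.44), and its highest library was not the mutant control.

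The list built around the ecdysone receptor and its response genes also held genes of other roles, among them Met, gce and ImpL2. Of its 21 symbols 16 could be analysed, usp and br not among them, and 10 reached 1 RPKM. The rest of those analysed had 3 to 752 reads a library and were not tested. The list had 0 members past the rule in any of the 4 comparisons, out of 9 or 10 tested in each. Eip93F, at 4.99 RPKM in the wild type control and 10.7 with paraquat, lay just under it (0.97) and passed it with median-ratio scaling (1.12), upper-quartile scaling (1.22) or the mitochondrial large ribosomal RNA left out (1.01). Their medians were 0.38 for paraquat in wild type, 0.06 for paraquat in the mutant, 0.08 for genotype without paraquat and −0.15 for genotype under paraquat. Many of these genes have long introns that the deposited length includes, which lowers their RPKM and shrinks differences on this scale. The count of 0 past the rule therefore does not show that these genes were unchanged. EcR, the receptor itself, shown here for its role, had 1.59, 1.35, 1.09 and 1.18 RPKM in that order. Of 7 transcription factor genes listed for the fat body, some with roles in other tissues, 6 reached 1 RPKM. None of those passed the rule in these comparisons either, and the limit of deposited length holds for genes of this list too. The GATA factor srp stood at 2.57, 2.25, 4.31 and 3.84 RPKM, and Aef1, a repressor that binds fat body enhancers, at 65.7, 37.4, 39.2 and 38.9.

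Genes of the adult fat body did not move as a block. Of 14 tested, 2 were higher and 3 lower in wild type with paraquat, where 5.21% of all genes tested were higher and 10.4% lower. In the mutant control 2 were higher and 1 lower, where 6.55% were higher and 5.75% lower. The medians were −0.21 and 0.18. For paraquat in wild type the counts became 3 higher and 2 lower with median-ratio scaling, and 3 higher and 1 lower with upper-quartile scaling, which turned the median to 0.02. Under these scalings 7.60% and 9.53% of all genes were higher, and 5.39% and 3.69% lower. The gene of the main lipid carrier of the haemolymph, apolpp, stood at 60.1 RPKM in the wild type control, 55.3 in wild type with paraquat, 183 in the mutant control and 101 in the mutant with paraquat. It was higher in the mutant control (1.59 on the log2 scale) but differed by −0.12 with paraquat in wild type. The alpha-glucosidase gene tobi followed the order of Lsp2, with 3.69, 36.6, 277 and 231 RPKM. The yolk protein gene Yp3, at 2069, 868, 2423 and 1395 RPKM, and the female fat body gene fit, at 27.8, 3.65, 41.9 and 10.04, were lower with paraquat in wild type, and fit was also lower with paraquat in the mutant. Summed RPKM of the list was 8882, 4345, 10158 and 6400.5.

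Genes for tanning and hardening of the cuticle after eclosion were listed for their timing. Of 7 tested, 2 were higher in wild type with paraquat and 1 in the mutant control, beside 5.21% and 6.55% of all genes. The medians of the 7 were 0.80 and 0.70, and 0 were lower in either. Upper-quartile scaling made the counts of those higher 5 and 2 of 7, beside 9.53% and 8.25% of all genes. The tyrosine hydroxylase gene ple stood at 7.003, 18.5, 21.3 and 14.9 RPKM, with the lowest and highest libraries of the 6 fat body genes, and e (ebony) at 1.61, 4.92, 4.01 and 2.38. The black gene, b, at 7.91, 14.5, 7.88 and 5.991, was lower in the mutant under paraquat. Summed RPKM of the list was 28.3, 57.5, 50.9 and 37.9, and Pburs was at 0 reads in 2 libraries. The age mix of a library and its group cannot be told apart, and the part of age in the results above was not tested. Genes of tissue remodelling (matrix proteases, caspases, autophagy) had 1 of 10 members past the rule in wild type with paraquat, where 5.21% of all genes were higher. It was the cell death inducer rpr (1.67 and 6.91 RPKM), and 0 passed in the mutant control. Upper-quartile scaling made the first count 2 of 10, where 9.53% of all genes were higher.

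Markers of other tissues moved in the same libraries. Muscle genes were higher in wild type with paraquat in 11 of 13 cases and in the mutant control in 6 of 13. Of all genes tested 5.21% and 6.55% were higher, and the medians of the list were 1.48 and 0.95. The mutant control count became 9 of 13 with median-ratio or upper-quartile scaling, where 7.84% and 8.25% of all genes were higher. Summed RPKM of the list was 3261, 10047, 7435 and 6842. Act88F, the flight muscle actin, stood at 307, 1308, 1453 and 1101 RPKM, fln at 113, 508, 464 and 418, Mhc at 132, 425, 355 and 328 and Mlc2 at 868, 2792, 1887 and 1830.4. Female germline genes were lower in 7 of 13 and 4 of 13 cases, beside 10.4% and 5.75% of all genes tested (medians −1.03 and −0.58). The former count was 5 of 13 with median-ratio or upper-quartile scaling, where 5.39% and 3.69% of all genes were lower. Summed RPKM of the list was 3272, 1448, 953 and 963. Of these genes bcd stood at 29.2, 10.1, 11.7 and 10.8 RPKM, png at 38.6, 12.9, 13.95 and 12.4 and krimp at 53.6, 18.5, 31.1 and 28.4. Others went the other way, short of the rule. The level of grk was 9.58, 11.5, 10.9 and 9.71 RPKM, above the wild type control in both comparisons. That of aub was 18.5, 15.3, 25.9 and 28.0, higher in the mutant control only. The gene dhd, at 2014, 775, 114 and 110.4, made up most of the sum in both wild type libraries. In the mutant libraries it made up a small part, so the sum does not follow the list as a whole between genotypes.

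Eggshell genes were lower in 6 of 9 and 3 of 9 cases, beside 10.4% and 5.75% of all genes tested. In the mutant control yellow-g2 alone was higher, and summed RPKM of the list was 7491, 2729.9, 3708 and 2047. Cp15 stood at 2362, 212, 540.2 and 228 RPKM, Cp19 at 865, 78.1, 513 and 254, yellow-g at 22.3, 0.575, 40.2 and 16.6 and yellow-g2 at 45.2, 0.186, 92.7 and 28.0. Haemocyte genes were higher in 1 of 7 tested with paraquat in wild type and in 4 of 9 in the mutant control. Of all genes tested 5.21% and 6.55% were higher, and the medians of the list were 0.71 and 0.85. The former count became 2 with median-ratio or upper-quartile scaling, where 7.60% and 9.53% of all genes were higher. Summed RPKM of the list was 84.1, 114.6, 146 and 128. Col4a1, a collagen that the fat body also makes, stood at 33.0, 61.6, 79.0 and 64.4 RPKM, vkg at 11.0, 17.1, 25.9 and 20.0, Hml at 0.588, 1.77, 2.92 and 2.11 and NimC1 at 1.06, 4.31, 4.72 and 4.95. The gene crq went the other way, at 34.5, 24.6, 24.8 and 28.0 RPKM (−0.48 and −0.46 in these comparisons), short of the rule. The list shares srp, which differed by −0.14 with paraquat in wild type, with the transcription factors listed for the fat body. No analysed marker of these 4 tissue lists was at 0 reads. Symbols that were not analysed, among them vas, nos, Cp36 and Cp38, lie outside that statement. The median of the 6 fat body genes was above that of each of these lists in both comparisons, and the part of tissue make-up in their differences was not tested.

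**Figure D5:**
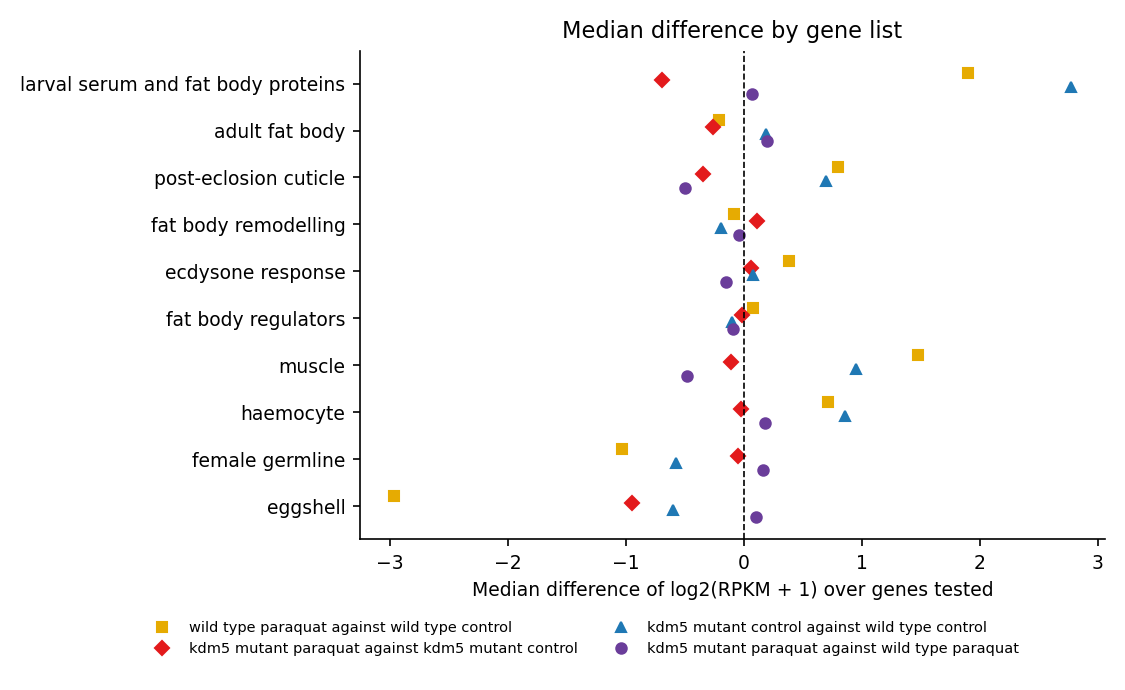
Median difference of log2(RPKM + 1) over the genes tested of each list, 1 symbol a comparison, with a dashed line at 0. The larval serum and fat body proteins have the highest medians of the lists drawn for wild type paraquat and for the mutant control against the wild type control, at 1.90 and 2.77, and stand at 0.07 between the paraquat libraries (−0.02 with upper-quartile scaling).

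Other genes with a pattern most like the 6 over the 4 libraries were taken as those with the smallest distance between profiles of log2(RPKM + 1), each centred on its own mean, among 6789 genes that reached 5 RPKM. The nearest 8 were CG15617, the cuticular protein gene Cpr76Bd, the cytochrome P450 gene Cyp28d1, the maltase genes Mal-A7 and Mal-A6, CG12643, CG34166 and CG33966, at distances of 0.30 to 0.53 from the median of the 6. CG15617 stood at 4.54, 16.8, 29.9 and 17.8 RPKM in the same order, Cpr76Bd at 4.57, 17.5, 28.0 and 20.95, and Mal-A7 at 18.6, 88.2, 117 and 103. The 6 genes set that median themselves, so their own distances to it are small in part by construction. Among them Lsp1gamma and Fbp2 were nearest to the median, at 0.26 and 0.27, with 0 other genes nearer. Lsp2 was farthest, at 1.17, with 146 other genes nearer, and Fbp1 followed at 0.89 with 59.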

How the data were processed

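Poly-A RNA of 4 libraries, 1 per group, was sequenced, and Cufflinks and dm3 are the tool and build in the submitters' processing notes. Aligner, annotation release and strand use: not given in the sources used here. Every deposited table gives, per the file headers, counts of uniquely mapped reads per gene, the gene length in bases, the percent of that length covered, and RPKM. The read counts sum to the total in the header of each table, and the deposited RPKM equals counts over length and total to within a relative gap of 5.13e-07. A gene missing from a table was taken as 0 reads. Near-identical copies lose reads in unique counting, which may touch the related Lsp1 genes.

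Values were used as deposited. Differences of log2(RPKM + 1), which understate changes of low genes, were called at 1 with RPKM of at least 1 in a library compared. Reads behind a fold gave exact Clopper-Pearson 95% intervals (Python 3.11.15, scipy 1.17.1, pandas 2.3.3); they and the floor of 3 reads cover counting error only. A single library a group allows no test with edgeR or limma. The size rule was tried on simulated counts that held counting error alone. They had no spread between flies or libraries, so they do not show how the rule performs with 1 library a group. Gene positions come from BDGP6, which is newer than dm3. The 6 genes and 11 further lists were chosen with earlier results of these data known, and 31 of 147 symbols in the lists were not analysed here. Named genes are the 6, up to 4 per list past the rule by size, the 8 most alike in pattern and the nearest neighbours. EcR, Eip93F, srp, Aef1, Lcp1, Yp1, Yp2, crq, grk, aub and the prophenoloxidase genes were named outside that rule, after their values were seen.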

Additional observations from a re-analysis of the deposited data

Results flagged for a closer look

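Paraquat went with higher values in wild type flies and lower values in mutant flies for all 6 genes, with both counting intervals away from a fold of 1. With 1 library a group the difference between the genotypes was not tested. The mutant difference minus the wild type difference of log2(RPKM + 1) was −2.58 for Lsp1alpha, −2.58 for Lsp1beta, −2.28 for Lsp1gamma, −2.10 for Lsp2, −3.69 for Fbp1 and −3.13 for Fbp2. The wild type control, lowest for each of the 6, enters all of these values.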

How the results depend on the processing

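No paired analysis was possible because each group has 1 library. The 8 alternatives were a pseudocount of 0.1 or 5, a minimum RPKM of 5 or none, scaling by median ratio, by upper quartile or by totals that leave out the mitochondrial large ribosomal RNA, and reads not divided by length. For a difference between a pair of libraries the 3 scalings alone could change the sign, and under them all 90 differences of the 6 genes, responses compared included, kept it. The count of 2 genes lower with paraquat in the mutant became 0 with pseudocount 5, with median-ratio scaling, with upper-quartile scaling and without the mitochondrial large ribosomal RNA. With the mutant control as the baseline, the count of 6 genes higher in wild type with paraquat became 0. That 0 was fixed in advance, since the mutant control was the highest library for all 6 genes. With wild type paraquat as the baseline, the count of 6 genes higher in the mutant control became 2. These swaps pair libraries that differ in both genotype and paraquat. Pseudocount 5 left 5 of 6 genes higher with paraquat in wild type.

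Median-ratio and upper-quartile scaling shifted the median gene by 0.15 and 0.25 for paraquat in wild type, by 0.10 and 0.13 for the control libraries and by −0.13 and −0.21 for the difference of responses. The share of called genes that were higher went from 33.3% to 58.5% and 72.1%, from 53.3% to 64.9% and 68.4%, and from 57.5% to 36.8% and 25.6%. Depth limits Lsp1alpha and Fbp1 most, with 136 and 187 reads in the wild type control.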

Other observations

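The prophenoloxidases, enzymes of melanin formation, belong to the same protein superfamily as the hexamerins. PPO2 stood at 0.906, 0.847, 1.21 and 0.871 RPKM, taking wild type before mutant and control before paraquat, and PPO3 at 1.98, 0.793, 1.001 and 0.559. Neither passed the size rule in any comparison.

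Of the 12 nearest annotated neighbours of the 6 genes 9 had reads in a table, and CG8100, 8167 bases from Fbp1, was the only one past the size rule in any comparison. It stood at 0.0152 RPKM in the wild type control, 0.191 in wild type with paraquat, 1.20 in the mutant control and 0.849 in the mutant with paraquat, a difference of 1.12 between the control libraries. DEF8, 276 bases from Lsp2, had 10.2, 8.64, 8.14 and 8.25 RPKM. Cpr11A, 842 bases from Lsp1alpha, differed by 0.86 with paraquat in wild type.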
